A study of Mus musculus with 15 samples.

Results

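The hepatic expression of 10 genes of SREBP processing and sterol sensing was compared between livers of mice on high-fat diets, coffee-free or with coffee added, and on a normal diet. The genes were Srebf1, Srebf2, Scap, Insig1, Insig2, Mbtps1, Mbtps2, Nr1h3, Mylip and Stard4, which are 10 of the 18193 genes named by a probe set with 1 gene symbol. Every probe set annotated to 1 of these genes alone was taken, which gave 18 of the 45037 probe sets that are not controls. A further probe set annotated to both Yy2 and Mbtps2 had group means between 5.13 and 5.33 log2 intensity and was assigned to neither gene.

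All mice were C57BL/6J males that were 7 weeks old when feeding began and ate their diet for 9 weeks. The HFCC group received a high-fat diet (60 kcal% fat) containing 2% caffeinated coffee, the HFDC group the same diet with 2% decaffeinated coffee, and the HFGC group the same diet with 2% green unroasted coffee. The HF group received the high-fat diet alone, and the ND group a normal diet (10 kcal% fat). Total liver RNA of 3 mice per group was hybridised, 1 mouse to an array, which gave 15 arrays. A value is the log2 of the deposited intensity, so a difference of 1 is a 2-fold difference, and a probe set was called when its adjusted p from limma, over all 45037 probe sets, was under 0.05. These values are relative to the whole RNA of the liver, and fewer cells of a type cannot be told apart from less RNA per cell.

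Sterol regulatory element-binding proteins (SREBPs) are transcription factors made as membrane proteins of the endoplasmic reticulum. When membrane cholesterol is low, the escort protein SCAP carries them to the Golgi, where the site-1 and site-2 proteases release the active part, and when cholesterol or oxysterols are high the INSIG proteins hold SCAP back. In liver SREBP-2 mainly drives cholesterol synthesis and uptake, SREBP-1c drives fatty acid synthesis, and the oxysterol receptor LXR turns on Srebf1 and genes of cholesterol export. Neither SREBP cleavage nor sterol content is read by an array, so the values below are mRNA levels only.

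Insig1 and Srebf2 are themselves known targets of SREBPs, and both were among the genes that changed, so their start regions are shown. Each window runs from 250 bases before the annotated start into the transcript, on the + strand, from RefSeq (GRCm38.p6). Capitals mark matches, on either strand, to 3 motifs: TCACCCCA, the core of the classical sterol regulatory element, CACGTG, an E-box, and CCAAT, the box bound by the SREBP partner NF-Y, which reads ATTGG where it lies on the other strand. The Srebf2 window lies at chr15:82147019-82147318 and the Insig1 window at chr5:28071162-28071461.
Srebf2: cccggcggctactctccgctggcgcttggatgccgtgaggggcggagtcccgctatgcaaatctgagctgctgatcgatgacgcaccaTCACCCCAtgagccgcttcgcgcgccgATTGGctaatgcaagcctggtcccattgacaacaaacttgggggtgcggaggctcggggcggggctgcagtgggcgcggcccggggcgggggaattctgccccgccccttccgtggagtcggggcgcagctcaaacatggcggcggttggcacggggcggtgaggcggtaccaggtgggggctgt
Insig1: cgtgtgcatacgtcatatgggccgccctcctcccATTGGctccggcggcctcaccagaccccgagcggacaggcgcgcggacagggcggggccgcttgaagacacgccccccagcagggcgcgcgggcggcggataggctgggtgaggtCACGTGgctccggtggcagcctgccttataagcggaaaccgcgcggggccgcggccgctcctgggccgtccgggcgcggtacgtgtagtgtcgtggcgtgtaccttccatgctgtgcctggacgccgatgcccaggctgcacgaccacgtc

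In the Srebf2 window, TCACCCCA lay 162 bases and ATTGG 135 bases before the start. In the Insig1 window, CACGTG lay 101 bases and ATTGG 216 bases before the start. TCACCCCA was found in 1.56% of 32851 start windows of the genome and, among 9 of the 10 genes (Stard4 was not used here), in Srebf2 alone. CACGTG, found in 7.15% of all windows, was in a window of Insig1 and of Scap. CCAAT was in 37.4% of all windows, in those of 5 of the 9 genes (Insig1, Insig2, Mylip, Srebf1 and Srebf2) and in those of 14 of 14 sterol synthesis genes with a window, of which 1 held TCACCCCA and 3 held CACGTG. The longer element TCACNCCAC (1.24% of windows), whose letters overlap those of TCACCCCA and which 1 of the 14 sterol genes held, and the LXR element, a repeat of AGGTCA spaced by 4 bases (0.0152% of windows), were in no window of the 9 genes. A gene with several starts had several windows, and a match is a stretch of letters, not a measured binding site.

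The arrays were alike in scale, with a median intensity of 48.4 to 49.9. The summed level of 6 hepatocyte markers lay between 16.56 and 16.65 log2 intensity on every array, and that of the 2 adipocyte markers analysed between 4.96 and 5.26. The 2 neutrophil markers analysed, S100a8 (1.51 on the log2 scale) and S100a9 (0.74), were both called higher in HF livers against ND livers (adjusted p 0.00663 and 0.0307), with a summed level of 7.14 to 8.07 on HF arrays and 6.33 to 6.68 on ND arrays. Of 6 stellate cell markers 2 were called higher in HF against ND livers, Col3a1 (0.70, adjusted p 0.0140) and Reln (0.52, adjusted p 0.0199), and the summed level of the 6 was 12.02 to 12.07 on HFCC, 11.73 to 12.13 on HFDC, 11.77 to 12.08 on HFGC, 11.78 to 12.15 on HF and 11.63 to 11.81 on ND arrays. Over all genes 7.89% were called higher in HF against ND. Of 6 macrophage markers 0 were called in that contrast. Their summed level was 11.88 to 12.88 on HFCC, 12.17 to 12.46 on HFDC and 11.90 to 12.31 on HFGC arrays. It was 12.23 to 12.35 on HF and 11.56 to 12.32 on ND arrays. Of 4 endothelial markers Stab2 was called higher in HF against ND livers (0.49, adjusted p 0.00357) and lower in the coffee groups together against HF (−0.36, adjusted p 0.0111), while the summed level of the 4 averaged 10.97 on HF and 10.82 on ND arrays, whose ranges overlapped. The part of these markers in the results below was not tested. The mean difference between the 3' and 5' control probe sets of Gapdh and beta-actin, a sign of RNA integrity, was 1.08 to 1.40 log2 units on the 3 HF arrays and 0.70 to 1.07 on the other 12. This measure and the HF diet therefore cannot be told apart well, and the calls below in contrasts with HF are also given with the measure as a covariate. With it, 41 of all 45037 probe sets were called in HF against ND and 0 in each coffee group, or all of them, against HF. The marker calls above are given without the covariate and without leaving out arrays in turn.

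Against ND, the high-fat diet alone was accompanied by higher mRNA of Insig1, of Stard4 and, on 1 of its 2 probe sets, of Srebf2. Srebf1, Scap, Insig2, both proteases, Nr1h3 and Mylip did not pass the test. In HF against ND livers 5 of the 18 probe sets were called, all higher, whereas 5.98% of all probe sets were called higher and 4.32% lower. The median log2 fold change was 0.12 over the 18 probe sets and −0.01 over all probe sets. With the 3' minus 5' measure as a covariate none of the 18 was called in HF against ND, and 5 were still called in HFCC and 5 in HFGC against ND, contrasts that do not include the HF group, although its arrays entered the same fit. With only the compared groups in the fit, and no covariate, 4 were called in HFCC and 3 in HFGC against ND. Over all 45037 probe sets 260 and 89 were then called, against 832 and 435 with all groups in the fit.

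**Figure D1:**
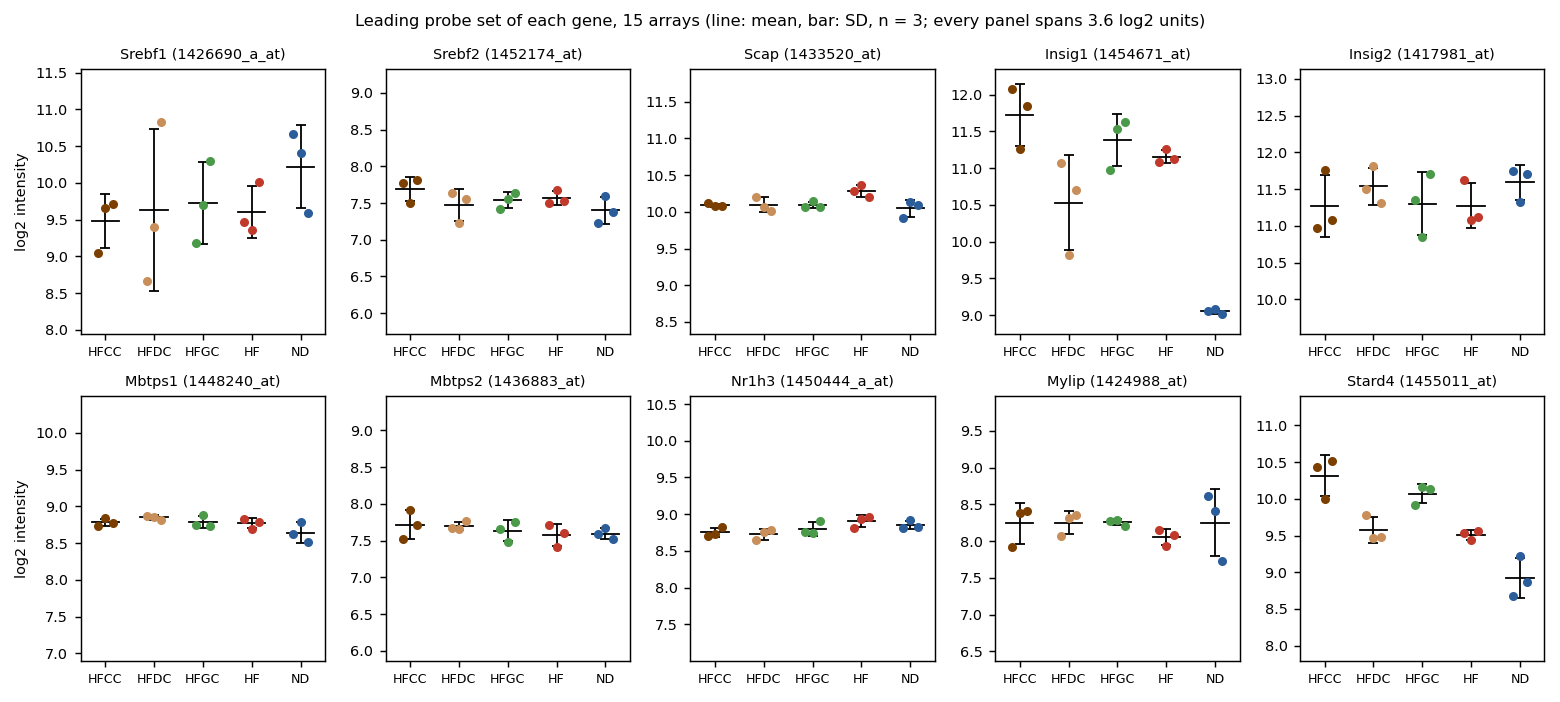
Log2 intensity (vertical axis) of the leading, brightest probe set of each gene on every array, by diet group (horizontal axis), with the group mean as a line and the SD as a bar (n = 3). Every panel spans 3.6 log2 units. Insig1 on the 3 ND arrays (9.01 to 9.08) lies below all 12 high-fat arrays, and Nr1h3 stays between 8.64 and 8.97 on all 15 arrays.

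Srebf1 (1426690_a_at, chromosome 11, 60199084 to 60224186 in GRCm38.p6) encodes SREBP-1a and SREBP-1c, and its probe set is of a type that several transcripts of a gene share. It had 9.05, 9.66 and 9.72 in HFCC livers, 8.67, 9.40 and 10.82 in HFDC livers, 9.18, 9.70 and 10.30 in HFGC livers, 9.46, 9.35 and 10.01 in HF livers, and 10.66, 10.41 and 9.59 log2 intensity in ND livers. The groups overlapped throughout, and the HFDC livers alone spanned both the lowest and the highest value of the 15. The SD was 1.10 in HFDC livers, against 0.35 to 0.56 in the other groups. HF against ND gave −0.61 ± 0.43 (SE, adjusted p 0.398), with a 95% interval of −1.54 to 0.31, which leaves room for a sizeable difference in either direction. The coffee groups differed from HF by −0.13, 0.02 and 0.12 in the order HFCC, HFDC and HFGC, and none passed.

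Srebf2 (chromosome 15, 82147269 to 82205379), which encodes SREBP-2, was read by 2 probe sets that did not move alike. On 1426744_at it had 7.19, 6.82 and 7.15 in HFCC livers, 6.65, 6.17 and 6.04 in HFDC livers, 6.79, 6.87 and 7.32 in HFGC livers, 6.80, 6.88 and 6.72 in HF livers, and 6.21, 5.72 and 5.80 log2 intensity in ND livers. All HFCC, HFGC and HF arrays lay above all ND arrays, while the HFDC arrays reached into the ND range. HF livers were higher than ND livers by 0.89 ± 0.17 (SE), a 1.85-fold difference (adjusted p 0.00700), and with the 3' minus 5' covariate the estimate was 0.81 (adjusted p 0.212). HFCC livers were 1.14 and HFGC livers 1.09 above ND livers (adjusted p 0.00359 and 0.00923), and HFDC livers 0.38 (adjusted p 0.36).

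The brighter Srebf2 probe set, 1452174_at, had 7.77, 7.50 and 7.81 in HFCC livers, 7.64, 7.23 and 7.56 in HFDC livers, 7.43, 7.55 and 7.64 in HFGC livers, 7.50, 7.68 and 7.52 in HF livers, and 7.23, 7.60 and 7.38 log2 intensity in ND livers. Here every pair of groups overlapped, and HF against ND gave 0.17 ± 0.12 (SE, adjusted p 0.41). The Pearson correlation of the 2 probe sets over the 15 arrays was 0.57. The Srebf2 call therefore rests on 1 probe set, and is absent where the brightest probe set stands for a gene.

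**Figure D2:**
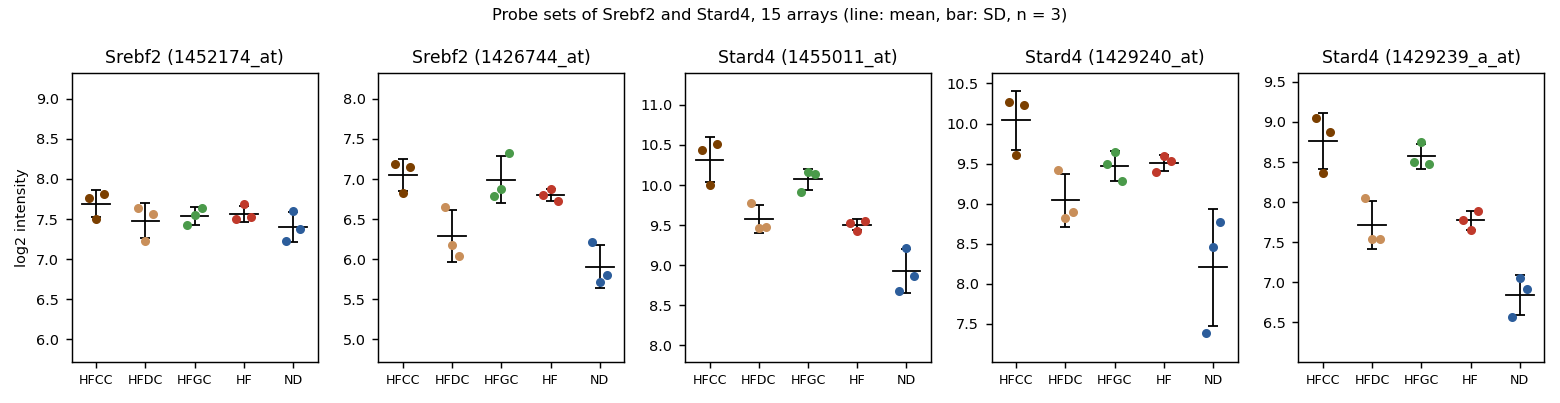
Log2 intensity (vertical axis) of both Srebf2 probe sets and all 3 Stard4 probe sets on every array, by diet group (horizontal axis), with the group mean as a line and the SD as a bar (n = 3). Srebf2 1426744_at separates the HF arrays (6.72 to 6.88) from the ND arrays (5.72 to 6.21) and 1452174_at does not, whereas all 3 Stard4 probe sets place the HF arrays above the ND arrays.

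Scap (1433520_at, chromosome 9, 110333288 to 110384949), the escort protein, had 10.11, 10.08 and 10.08 in HFCC livers, 10.21, 10.07 and 10.01 in HFDC livers, 10.06, 10.15 and 10.07 in HFGC livers, 10.28, 10.36 and 10.20 in HF livers, and 9.92, 10.13 and 10.09 log2 intensity in ND livers. The HF arrays were the highest apart from HFDC replicate 1, which overlapped them. HF against ND gave 0.24 ± 0.08 (SE), with a 95% interval of 0.07 to 0.40, and the 3 coffee groups together against HF gave −0.19 ± 0.06 (SE). Both had an unadjusted p under 0.05 (0.0072 and 0.0084), and neither passed over all probe sets (adjusted p 0.061 and 0.079). Both would pass at the looser threshold of 0.10. The second Scap probe set, 1442885_at, was dim, with group means of 5.06 to 5.17, and did not follow the first (r = −0.05 over 15 arrays).

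The INSIG genes, whose proteins retain SCAP in the endoplasmic reticulum, behaved differently from each other. Insig1 (1454671_at, chromosome 5, 28071412 to 28078662) had 12.08, 11.26 and 11.85 in HFCC livers, 11.07, 9.81 and 10.71 in HFDC livers, 10.98, 11.53 and 11.63 in HFGC livers, 11.08, 11.26 and 11.13 in HF livers, and 9.06, 9.08 and 9.01 log2 intensity in ND livers. All 12 high-fat arrays were above the 3 ND arrays, and HFDC replicate 2 was the nearest to them. The ND values differed by less than 0.1, while the HFDC livers had an SD of 0.65.

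Insig1 was 2.11 ± 0.26 (SE) higher in HF than in ND livers, a 4.31-fold difference (adjusted p 0.000603), and it stayed called when each array in turn was left out. With the 3' minus 5' covariate the estimate was 1.76 ± 0.38 (SE, adjusted p 0.0923), which no longer passed. Against ND it was 6.40-fold higher in HFCC livers (adjusted p 0.000213), 5.03-fold in HFGC livers (adjusted p 0.000685) and 2.79-fold in HFDC livers (adjusted p 0.0290), and all 3 calls held with the covariate. The HFDC call failed when HFDC replicate 1 or 3, or ND replicate 1 or 3, was left out (adjusted p 0.0556 to 0.0966). In descending order the group means were 11.73 in HFCC, 11.38 in HFGC, 11.16 in HF, 10.53 in HFDC and 9.05 in ND livers, and of the neighbours in this order only HFDC and ND differed past the threshold.

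Insig2 (chromosome 1, 121304353 to 121332662) was bright on 3 probe sets that followed each other (r = 0.95 to 0.96 over 15 arrays). Its leading probe set, 1417981_at, had 10.97, 11.76 and 11.08 in HFCC livers, 11.51, 11.81 and 11.31 in HFDC livers, 11.35, 10.85 and 11.70 in HFGC livers, 11.63, 11.07 and 11.12 in HF livers, and 11.75, 11.32 and 11.71 log2 intensity in ND livers. Every group overlapped every other on this probe set. HF against ND gave −0.32 ± 0.23 (SE, adjusted p 0.42), with a 95% interval of −0.81 to 0.18, so a rise of the size seen for Insig1 lies outside it. None of the 3 probe sets was called in any of the 11 contrasts.

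Mbtps1 (1448240_at, chromosome 8, 119508151 to 119558864), the site-1 protease, had 8.74, 8.84 and 8.77 in HFCC livers, 8.88, 8.86 and 8.82 in HFDC livers, 8.74, 8.89 and 8.73 in HFGC livers, 8.83, 8.69 and 8.79 in HF livers, and 8.63, 8.79 and 8.51 log2 intensity in ND livers. Only the HFDC arrays lay wholly above the ND arrays, by a mean of 0.21 that did not pass (adjusted p 0.25). HF against ND gave 0.13 with a 95% interval of −0.04 to 0.30. The 2 other Mbtps1 probe sets were dimmer, with group means of 6.08 to 6.28 and of 3.99 to 4.14, and neither was called.

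Mbtps2 (1436883_at, chromosome X, 157547822 to 157598715), the site-2 protease that makes the second cut, ranged over 7.52 to 7.92 in HFCC, 7.66 to 7.77 in HFDC, 7.48 to 7.76 in HFGC, 7.41 to 7.71 in HF and 7.53 to 7.67 log2 intensity in ND livers. All groups overlapped, and HF against ND gave −0.02 with a 95% interval of −0.24 to 0.21.

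Nr1h3 (1450444_a_at, chromosome 2, 91184061 to 91202829), which encodes LXR alpha, had 8.70, 8.73 and 8.83 in HFCC livers, 8.64, 8.75 and 8.79 in HFDC livers, 8.76, 8.74 and 8.91 in HFGC livers, 8.81, 8.94 and 8.97 in HF livers, and 8.81, 8.92 and 8.83 log2 intensity in ND livers. The HFDC arrays lay just below both the HF and the ND arrays, and the other groups overlapped. No difference passed, the largest being −0.18 ± 0.07 (SE) in HFDC against HF livers (adjusted p 0.20).

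Mylip (1424988_at, chromosome 13, 45389742 to 45411940), an LXR target whose ubiquitin ligase limits lipoprotein uptake, had 7.93, 8.38 and 8.41 in HFCC livers, 8.08, 8.32 and 8.36 in HFDC livers, 8.27, 8.29 and 8.21 in HFGC livers, 8.15, 7.93 and 8.08 in HF livers, and 8.61, 8.40 and 7.73 log2 intensity in ND livers. ND replicate 3 was the lowest of all 15 arrays and ND replicate 1 the highest. The HFGC arrays lay above the HF arrays by a mean of 0.21 (adjusted p 0.60), and HF against ND gave −0.20 ± 0.18 (SE, adjusted p 0.52).

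Stard4, a cytosolic sterol transfer protein and known SREBP-2 target, was read by 3 probe sets that moved together (r = 0.87 to 0.98 over 15 arrays). On the brightest, 1455011_at, it had 10.44, 10.00 and 10.51 in HFCC livers, 9.78, 9.47 and 9.48 in HFDC livers, 9.92, 10.16 and 10.13 in HFGC livers, 9.53, 9.43 and 9.56 in HF livers, and 8.68, 9.22 and 8.87 log2 intensity in ND livers. On 1429239_a_at it had 9.05, 8.37 and 8.87 in HFCC livers, 8.05, 7.54 and 7.55 in HFDC livers, 8.50, 8.75 and 8.47 in HFGC livers, 7.78, 7.65 and 7.89 in HF livers, and 6.57, 7.06 and 6.91 log2 intensity in ND livers. On both, every HFCC and HFGC array lay above every HF array, every high-fat array lay above every ND array, and the HFDC and HF arrays overlapped. The third probe set, 1429240_at, ran from 9.61 to 10.27 in HFCC, 8.82 to 9.42 in HFDC, 9.28 to 9.65 in HFGC, 9.39 to 9.59 in HF and 7.38 to 8.78 log2 intensity in ND livers, and here HFGC and HF overlapped.

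In HF against ND livers Stard4 was higher by 0.58, 1.30 and 0.93 on the log2 scale on 1455011_at, 1429240_at and 1429239_a_at (adjusted p 0.0214, 0.0107 and 0.00610). With the 3' minus 5' covariate the log2 estimates were 0.53, 0.72 and 0.65 and none passed (adjusted p 0.277 to 0.411). On 1455011_at the call also failed when HF replicate 2 or 3, or ND replicate 1 or 3, was left out (adjusted p 0.0528 to 0.0738). Against ND, HFCC livers were 2.63-fold, 3.56-fold and 3.78-fold higher and HFGC livers 2.22-fold, 2.41-fold and 3.31-fold higher on the same 3 probe sets, and all 6 differences were called with and without the covariate. The HFGC call on 1429240_at (adjusted p 0.0413) was lost when any of 11 arrays was left out, that is all but ND replicates 2 and 3, HFCC replicate 2 and HFDC replicate 1.

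Coffee was then compared with the high-fat diet alone, and Stard4 was the only 1 of the 10 genes called. In HFCC against HF livers 2 of the 18 probe sets were called, both higher and both of Stard4, whereas 0.167% of all probe sets were called higher and 0.333% lower. Stard4 was 1.75-fold higher on 1455011_at (0.81 ± 0.15 SE, adjusted p 0.0398) and 1.99-fold higher on 1429239_a_at (0.99 ± 0.17 SE, adjusted p 0.0390), and 0.53 ± 0.27 (SE, adjusted p 0.38) on 1429240_at. In HFGC against HF livers 1 of 18 was called, Stard4 on 1429239_a_at with a 1.74-fold difference (adjusted p 0.0335), against 0.711% of all probe sets called higher and 2.58% in either direction. On 1455011_at HFGC livers were 0.56 above HF livers, and this missed the threshold (adjusted p 0.052).

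These Stard4 calls lay close to the threshold. Under the 3' minus 5' covariate the HFCC estimates grew to 0.85 and 1.23 and the HFGC estimate to 1.12, but the errors grew as well and none passed (adjusted p 0.418 to 0.582). Both HFCC calls were lost without HF replicate 2 or 3, HFCC replicate 1 or 3, HFDC replicate 2 or HFGC replicate 1 or 2, and the call on 1455011_at also without HFDC replicate 3 (adjusted p 0.0501 to 0.227). Over all 45037 probe sets the calls in HFCC against HF fell as well, from 225 to 1 without HF replicate 2 or 3. Without HFCC replicate 1 or 3 they were 2 or 4. Without HFDC replicate 2 or 3 or HFGC replicate 1 or 2 they were 35 to 54. With each array left out the log2 estimates stayed at 0.71 to 0.97 on 1455011_at and 0.85 to 1.19 on 1429239_a_at. The HFGC call was lost without HF replicate 2 or 3 or without any 1 of the 3 HFGC arrays (adjusted p 0.0687 to 0.150). In these fits 9 to 277 of all probe sets were called in HFGC against HF, against 1162 with all arrays.

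In HFDC against HF livers none of the 18 probe sets was called by limma, 4 had an unadjusted p under 0.05 (19.7% of all probe sets did), and 2.72% of all probe sets were called. Stard4 gave 0.07, −0.46 and −0.06 on 1455011_at, 1429240_at and 1429239_a_at. Insig1 gave −0.63 ± 0.26 (SE, adjusted p 0.19) and Srebf2 1426744_at −0.51 ± 0.17 (SE, adjusted p 0.11), and for both the 3 HFDC arrays lay below the 3 HF arrays. Arrays of HFDC and HF did not overlap for 24% of all probe sets and for 3 of these 18, the third being Nr1h3.

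**Figure D3:**
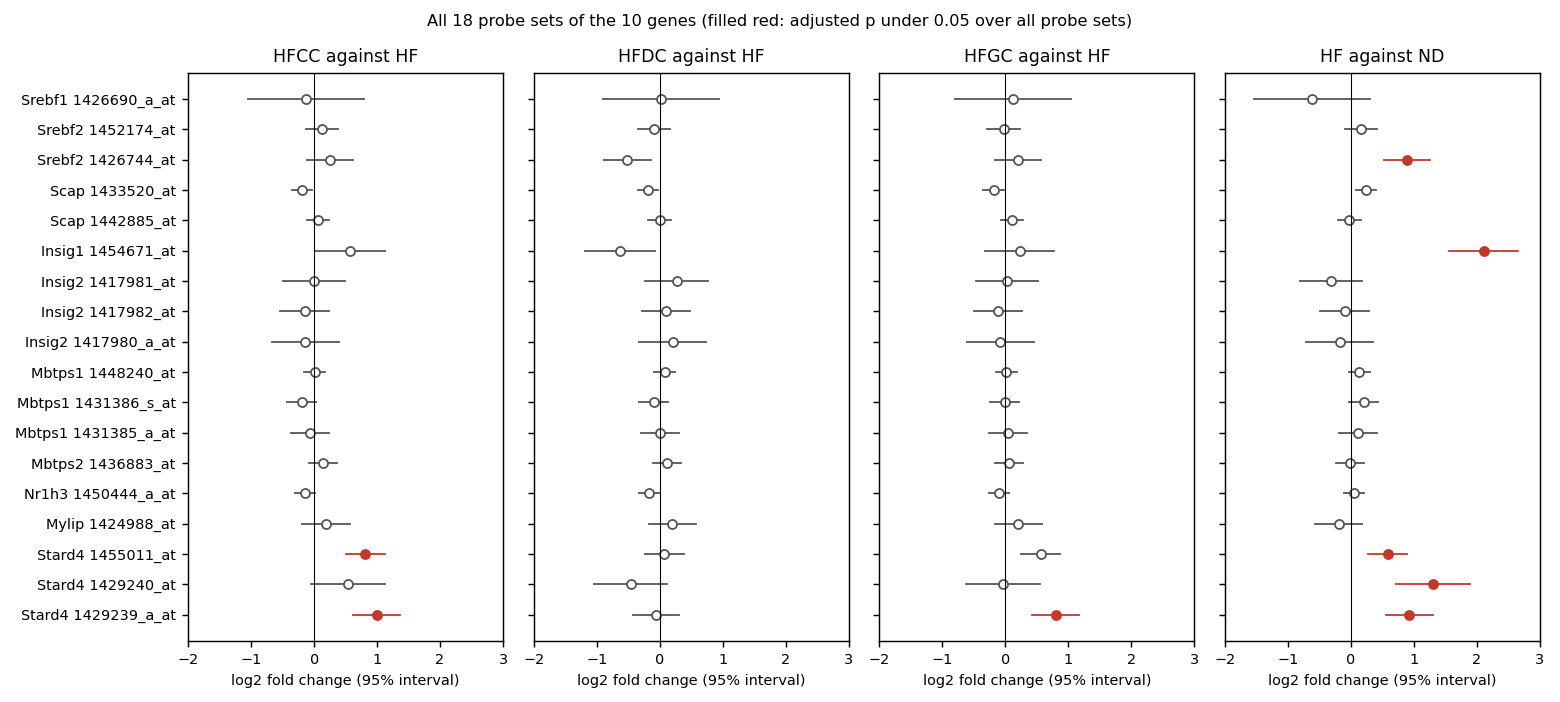
Log2 fold change with its 95% interval (horizontal axis) of all 18 probe sets (rows) for each coffee group against HF and for HF against ND. Filled red points were called by limma at an adjusted p under 0.05: 2 in HFCC, 0 in HFDC and 1 in HFGC against HF, all of Stard4, and 5 in HF against ND.

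When the 9 coffee arrays were pooled against HF, 2 of 18 probe sets were called, Stard4 1455011_at at 0.48 ± 0.12 and 1429239_a_at at 0.58 ± 0.14 (SE), with adjusted p 0.0268 and 0.0269. Over all probe sets 2.71% were called higher and 7.24% in either direction. With the covariate the estimates were 0.53 and 0.84 and neither was called (adjusted p 0.517 and 0.497). Both Stard4 calls were also lost without HF replicate 2 or 3 (adjusted p 0.0855 to 0.176), and HFDC against HF gave 0.07 and −0.06 on these probe sets. Over all probe sets the calls fell from 3262 to 4 without HF replicate 2 and to 204 without HF replicate 3. Insig1, called in each coffee group against ND, gave 0.06 ± 0.21 (SE, adjusted p 0.91) here.

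Each coffee group was also above ND for some of these genes. In HFCC against ND livers 5 of 18 probe sets were called, all higher (1.05% of all probe sets higher), in HFGC against ND livers 5 (0.606% higher) and in HFDC against ND livers 2 (0.198% higher). The 5 were the same in both, Insig1, Srebf2 1426744_at and the 3 Stard4 probe sets. The 2 in HFDC livers were Insig1 and Stard4 1429239_a_at, the second with a 1.82-fold difference (adjusted p 0.0480) that was lost when any of 11 arrays was left out, that is all but ND replicate 2, HFCC replicates 1 and 2 and HFGC replicate 3 (adjusted p up to 0.11). These comparisons share the ND arrays with each other and with HF against ND.

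Direct tests between the coffee groups called none of the 18 probe sets. In HFDC against HFCC livers 5 had an unadjusted p under 0.05 (7.42% of all probe sets did, and 0.00444% were called). Insig1 gave −1.20 ± 0.26 (SE, adjusted p 0.13), Stard4 −0.74, −0.996 and −1.05 (adjusted p 0.10, 0.32 and 0.071) and Srebf2 1426744_at −0.77 (adjusted p 0.16). For these 5 every HFDC array lay below every HFCC array, as 6.82% of all probe sets did. Without HFDC replicate 1, the highest of the 3 for each of these probe sets, 4 of the 5 were called (adjusted p 0.00922 to 0.0438), all but Stard4 1429240_at. In that fit 97 of all 45037 probe sets were called, against 2 with all arrays. Stard4 1429239_a_at was also called without HFCC replicate 2 (adjusted p 0.0348) or HFGC replicate 3 (adjusted p 0.0495), with 3 and 34 of all probe sets called.

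In HFGC against HFDC livers 4 of the 18 probe sets had an unadjusted p under 0.05, among 5.73% of all, and Insig1 was 0.85 ± 0.26 (SE) higher in HFGC livers (adjusted p 0.54). In HFGC against HFCC livers none of the 18 did, among 3.54% of all. The 95% interval of that difference was −0.90 to 0.21 for Insig1 and −0.55 to 0.06 for Stard4 1455011_at, so moderate differences between these 2 coffees remain possible.

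In a contrast chosen after seeing the data, the 2 caffeine-containing coffees together (HFCC and HFGC) were set against HFDC. Stard4 1429239_a_at was called higher in the caffeine-containing groups (0.95 ± 0.15 SE, adjusted p 0.0342, limma), and Insig1 (1.03 ± 0.22 SE, adjusted p 0.117), Srebf2 1426744_at (0.74, adjusted p 0.0923) and Stard4 1455011_at (0.62, adjusted p 0.0941) were not, whereas 0.0666% of all probe sets were called. All 17 sterol synthesis genes analysed here (described next) were above 0, with a median of 1.31 (−0.01 over all genes), and 3 were called, Mvd (2.08), Fdps (2.18) and Lss (1.31). Leaving out each array gave 0 to 3 called probe sets of the 10 genes, with 0 without HFCC replicate 1 or 3, HFDC replicate 2 or 3 or HFGC replicate 2, and 3 without HFDC replicate 1. Srebf1, Scap, Insig2, Mbtps1, Mbtps2, Nr1h3 and Mylip were between −0.31 and 0.08 on all their probe sets and none passed. The green coffee of HFGC was also unroasted, so in HFGC against HFDC roasting and caffeine cannot be told apart. The paper also lists more chlorogenic acids and more trigonelline in the green coffee powder than in the other 2 powders.

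The genes that SREBP-2 controls were read next, from a list of sterol synthesis and uptake genes of which 17 of 22 were analysed here. In HF against ND livers 14 of the 17 were called higher and none lower by their leading probe sets, against 7.89% higher and 3.96% lower over all genes, and their median log2 fold change was 1.39 (0.00 over all genes). The largest differences were those of Msmo1 (3.05, adjusted p 0.00183), Sqle (2.80, adjusted p 0.0149), Idi1 (2.64, adjusted p 0.0042) and Fdps (2.53, adjusted p 0.00289), which encode enzymes between isopentenyl diphosphate and the methyl sterols. Hsd17b7 (0.47), Sc5d (0.27) and Ebp (0.25) did not pass. Without HF replicate 2 the count was 7 of 17, and with the 3' minus 5' covariate it was 0, while in HFCC against ND livers 16 of 17 were called higher (median 2.06, with 1.37% of all genes higher) and 15 with the covariate.

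The mean level of these 17 genes by array was 10.65, 9.97 and 10.53 in HFCC livers, 9.72, 8.53 and 8.36 in HFDC livers, 9.65, 10.10 and 10.53 in HFGC livers, 9.72, 9.68 and 9.49 in HF livers, and 8.16, 8.07 and 8.06 log2 intensity in ND livers. HFDC replicate 1 lay just above the highest HF array, and HFDC replicates 2 and 3 lay between HF and ND. Insig1 was low on HFDC replicate 2 as well, but on HFDC replicate 3, the lowest of the 3 for the sterol genes, it stood nearer to its HF level. In HFDC against HF livers none of the 17 was called, 13 had an unadjusted p under 0.05 and 16 were below 0 (median −0.83), and without HFDC replicate 1 the count called was 10. In that fit 617 of all 45037 probe sets were called, against 1227 with all arrays. In HFCC against HF livers none was called, 10 had an unadjusted p under 0.05 (15.5% of all probe sets did) and 16 were above 0 (median 0.78), and in HFGC against HF livers none was called and the median was 0.38. The 3 coffee groups together gave 1 call, Sc5d at 0.37 (adjusted p 0.0411), with 2.7% of all genes higher and 5.9% lower. With the covariate Sc5d gave 0.16 and did not pass (adjusted p 0.787), and the call was also lost without any 1 of 9 arrays, HF replicates 2 and 3 among them.

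**Figure D4:**
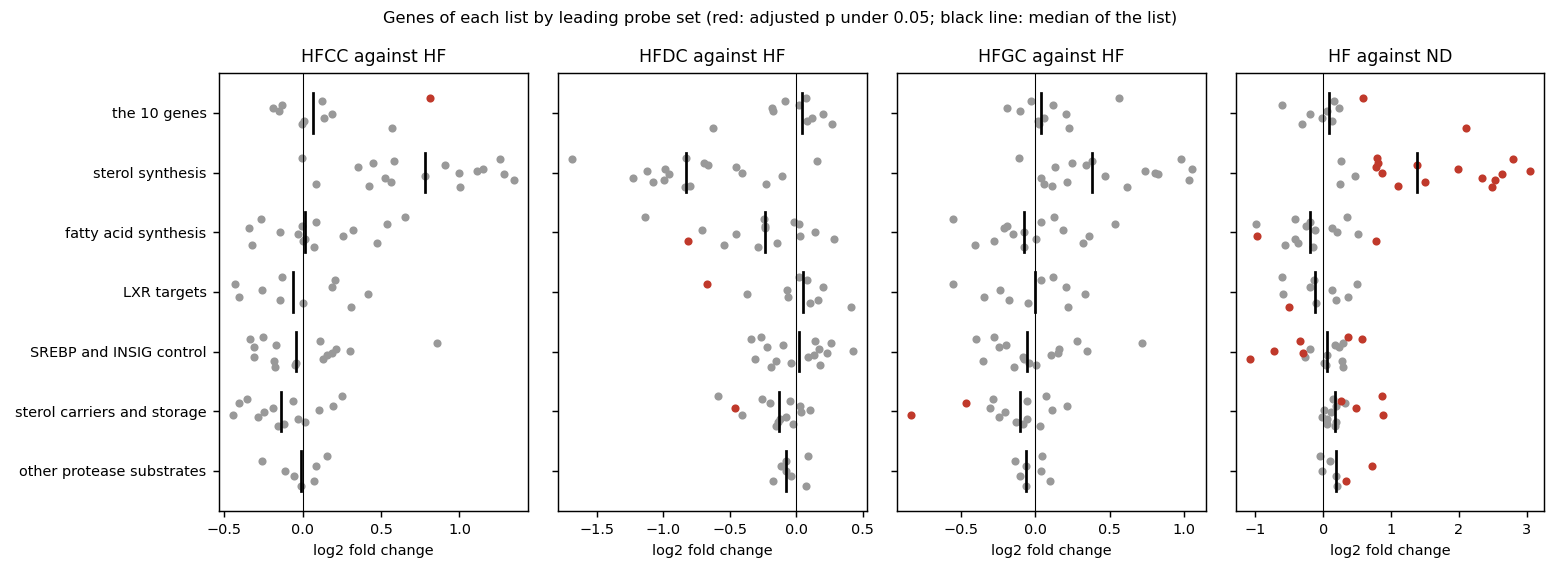
Log2 fold change (horizontal axis, with its own scale in each panel) of each gene of the 10 and of 6 other lists by leading probe set, for each coffee group against HF and for HF against ND. Red points were called at an adjusted p under 0.05 and black lines are list medians. The sterol synthesis list has its median at 1.39 in HF against ND and at −0.83 in HFDC against HF, while the fatty acid synthesis list has its median at −0.19 in HF against ND.

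Of the 15 fatty acid synthesis genes under SREBP-1c, few were called. In HF against ND livers 1 was called higher, Acss2, a cytosolic acetyl-CoA synthetase (0.77, adjusted p 0.0103), and 1 lower, Elovl6, a fatty acid elongase (−0.98, adjusted p 0.0138), with a list median of −0.19, and 1 of 15 in each direction is close to the 7.89% higher and 3.96% lower of all genes. With the covariate neither was called (adjusted p 0.359 and 0.351), and neither was without HF replicate 2. Mid1ip1 (−0.99, adjusted p 0.0881), Acacb (−0.57) and Fads1 (0.51) did not pass. In HFDC against HF livers Acss2 alone of this list was called, at −0.81 (adjusted p 0.0306, with 2.53% of all genes lower). With the covariate it gave −0.57 (adjusted p 0.417), and the call was also lost without HF replicate 2 or 3 or HFDC replicate 2 or 3. No gene of this list was called in HFCC, HFGC or all coffee groups together against HF. In HFDC against ND livers none was called, but 13 of the 15 were below 0 (median −0.48, against 0.01 over all genes). There 10 of the 15 had an unadjusted limma p under 0.05, as 13.2% of all probe sets did. In HFCC against ND livers 1 was called, higher (1.37% of all genes higher), and in HFGC against ND livers none.

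Of 10 LXR targets, Srebf1 and Mylip among them, only Abca1 was called in HF against ND livers. Abca1, the exporter of cholesterol to apolipoprotein A-I, had 10.93 to 11.34 in HF and 11.59 to 11.70 log2 intensity in ND livers (−0.50, adjusted p 0.0116), with 3.96% of all genes lower. With the covariate Abca1 gave −0.22 (adjusted p 0.482), and it was not called without HF replicate 2. It was higher in the coffee groups together than in HF livers (0.31, adjusted p 0.0437), while Pltp, a plasma phospholipid transfer protein, was lower (−0.55, adjusted p 0.0236). Neither of these was called with the covariate, where Abca1 gave 0.05 and Pltp −0.35 (adjusted p 0.936 and 0.648), or without HF replicate 2, and without 1 of 10 other arrays in turn 1 of them was called. Pltp was also called lower in HFDC against HF livers (−0.67, limma adjusted p 0.0416, with 2.53% of all genes lower). With the covariate it gave −0.49 (adjusted p 0.465), and the call was lost without HF replicate 2 or 3, among other arrays. Cyp7a1, the rate-limiting enzyme of bile acid synthesis, gave −0.59 and Abcg8, a subunit of the canalicular sterol exporter, 0.36 in HF against ND livers, and neither passed.

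Among 16 of 19 further genes of SREBP and INSIG control analysed here, 2 were called higher and 4 lower in HF against ND livers, whereas 7.89% of all genes were called higher and 3.96% lower. With the covariate none of the 6 was called (adjusted p 0.184 to 0.756), and without HF replicate 2 the count was 2, without HF replicate 3 or ND replicate 1 it was 3. Usp20, a deubiquitinase, rose by 0.57 (adjusted p 0.00642), and it was lower in the coffee groups together than in HF livers (−0.36, adjusted p 0.0274), where Rxra, the LXR partner, was also lower (−0.26, adjusted p 0.0272). Both of these calls against HF were lost with the covariate (−0.24 and −0.28, adjusted p 0.649 and 0.518) and without HF replicate 2 or 3. The ligase genes Rnf145 and Rnf139 were lower in HF than in ND livers (−0.72 and −0.30, adjusted p 0.00510 and 0.0389), as was Lpin1, whose protein restrains SREBP activity in the nucleus (−1.08, adjusted p 0.0363). Vcp, a segregase of protein degradation, was 0.36 higher (adjusted p 0.0385), and its cofactor gene Ufd1 gave −0.34 (adjusted p 0.0300). Crtc2 (0.30), Syvn1 (0.29) and Fbxw7 (0.28) did not pass.

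Stard4 belongs to a wider set of sterol carriers and storage genes, of which 14 of 16 others were analysed. In HF against ND livers 4 were called higher and none lower, whereas 7.89% of all genes were called higher and 3.96% lower. With the covariate none of the 4 was called (adjusted p 0.247 to 0.581), and without HF replicate 2 the count was 2. They were Nceh1, a cholesterol ester hydrolase (0.88, adjusted p 0.0179), Tmem97, a partner of the lysosomal cholesterol exporter NPC1 (0.86, adjusted p 0.00987), Npc2, which passes cholesterol to NPC1 (0.48, adjusted p 0.00470), and Stard3, an endosomal relative of Stard4 (0.26, adjusted p 0.0454). Scarb1, the receptor for high-density lipoprotein (0.32), Osbp (0.19) and Gramd1c (0.19) did not pass. In the coffee groups together against HF, Scarb1 (−0.36, adjusted p 0.0186) and Npc2 (−0.32, adjusted p 0.0180) were lower, opposite in sign to Stard4 in the same contrast. With the covariate they gave −0.39 and −0.15 and neither was called (adjusted p 0.513 and 0.685), nor was either without HF replicate 2 or 3. In HFDC against HF livers Npc2 was called lower (−0.46, limma adjusted p 0.0265, with 2.53% of all genes lower). In HFGC against HF livers Scarb1 (−0.47, adjusted p 0.0292) and Nceh1 (−0.84, adjusted p 0.0484) were called lower, with 2.07% of all genes lower. None of these 3 calls held with the covariate (adjusted p 0.415 to 0.863). No gene of the list was called between coffee groups.

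The site-1 and site-2 proteases also cut other membrane factors, and 7 of their substrates were measured. Creb3l2 (0.72, adjusted p 0.0101) and Atf6b (0.33, adjusted p 0.0348) were called higher in HF against ND livers, with 7.89% of all genes higher, and the other 5 were not. With the covariate neither was called (adjusted p 0.250 and 0.319), without HF replicate 2 the count was 0, and without HF replicate 3 or ND replicate 3 it was 1. None was called in any coffee group against HF.

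The pattern of each of the 10 genes over the 15 arrays was set against those of the 11744 genes at or above the median level, as a description, since the arrays share diet groups and are not independent points. The nearest to Insig1 were Msmo1, Cyp51 and Fdps (Pearson r 0.97, 0.96 and 0.96), all sterol synthesis genes. The nearest to Stard4 were Erg28 (0.94), Cyp2c54 (0.93) and Lss (0.93), of which Lss encodes lanosterol synthase. Insig1 and Stard4 had r = 0.89 with each other. Scap was nearest to Rnf121 (0.94), Igfbp4 (0.93) and Shisa5 (0.90), and Mylip to Fcgr2b (0.93), Srgn (0.93) and Igfbp7 (0.90). For Srebf1 (Spg21, 0.83), the leading Srebf2 probe set (Pde6c, 0.83), Insig2 (Slc30a10, 0.83), Mbtps1 (Mup10, 0.89), Mbtps2 (Fam204a, 0.87) and Nr1h3 (Serpinf1, 0.91) the nearest gene was none of the sterol list.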

How the data were processed

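Liver total RNA of 15 mice, 3 in each of 5 diet groups, was measured on the Affymetrix Mouse Genome array. The deposited values are intensity values on a linear scale, normalised by the authors with RMA according to the submitters' processing notes, with the software and its version not given in the sources used here; RMA forces the arrays to 1 distribution, so changes are relative, and the number of arrays limits the precision. The values of 45101 probe sets were taken as log2 and 64 control probe sets were left out. Gene symbols came from the platform annotation, where 34945 probe sets had 1 symbol, 932 several and 9160 none; 34741 matched RefSeq (GRCm38.p6) by gene ID and 0 symbols changed. 0 columns of values were left out.

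Differences were tested with limma 3.58.1 in R 4.3.3 (1 mean per group, all 15 arrays in 1 fit, eBayes, 10 residual degrees of freedom), with Benjamini-Hochberg adjustment over 45037 probe sets. The median standard error of a difference between 2 groups was 0.09 log2 units. In data simulated with the means and spreads of these arrays, 75% of probe sets changed by 1.5-fold and 90.5% of those changed by 2-fold were called in HF against ND, and 68% and 92.5% in HFCC against HF. The 200 changed probe sets were drawn from those at or above the median level, with independent normal noise and no shift from RNA quality. No other probe set was changed, so these shares do not give the power of the real contrasts. Every probe set of the 10 genes was reported, led by the brightest; of the other lists, up to 4 called and up to 3 uncalled genes with the largest difference were named, and of similar patterns the 3 highest correlations. The 10 genes and all lists were chosen with earlier results of these data known. The mice of a group are separate animals, but whether arrays shared a processing batch is not given in the sources used here. Alternatives were another normalisation, filter, offset, threshold, variance model, gene summary, the compared groups alone, the 3' minus 5' covariate, the replicate number as a block, and each array left out. Genes of the lists that the annotation here does not name were not analysed.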

Additional observations from a re-analysis of the deposited data

Results flagged for a closer look

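Insig1 was marked because its values moved in opposite directions under 2 coffees. All 3 HFCC arrays lay above, and all 3 HFDC arrays below, the 3 HF arrays, but the nearest arrays nearly met. The lowest HFCC array had 11.262 and the highest HF array 11.256, and the highest HFDC array 11.067 and the lowest HF array 11.083. HFCC against HF gave 0.57 and HFDC against HF −0.63, and neither was called by limma (adjusted p 0.30 and 0.19). Arrays did not overlap for 18.8% of all probe sets in HFCC against HF and for 24% in HFDC against HF. The direct limma test of HFDC against HFCC gave −1.20 ± 0.26 (SE) with an adjusted p of 0.13, so the difference between the 2 coffees did not pass over all probe sets. Without HFDC replicate 1 it was −1.47 (adjusted p 0.0265), and over all results with each array left out the adjusted p ran from 0.0265 to 0.49. The 3' minus 5' measure was 0.93 in both coffee groups. The cause was not tested.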

How the results depend on the processing

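Counts of the 18 probe sets called moved with several settings. With the 3' minus 5' covariate 0 were called in HF against ND, HFCC against HF, HFGC against HF and all coffee against HF, and 1 in HFDC against ND, while 0 of 17 sterol genes were called in HF against ND (count settings for these genes and for the other gene lists were added after seeing the data). With fits on the compared groups alone the counts were 3 in HF against ND, 0 in HFCC against HF, 0 in HFDC against ND and 3 in HFGC against ND. Over all 45037 probe sets these fits called 795, 0, 4 and 89 in the same order, against 4635, 225, 198 and 435 with all groups. One probe set per gene leaves 10 values to call: the brightest gave 3 in HF against ND, 1 in HFCC against HF, 1 in all coffee against HF, and 2, 1 and 2 in HFCC, HFDC and HFGC against ND, and the mean gave 3, then 0 for HFCC, HFGC and all coffee against HF, and 3, 1 and 3 against ND. Cyclic loess and the trended, robust variance each gave 2 in HFGC against HF and 1 in HFDC against ND, the filter at the median level 2 in HFGC against HF, an offset of 32 gave 0 in HFDC against ND, a 1.5-fold minimum 0 in all coffee against HF, and an adjusted p under 0.10 gave 2 in HFGC against HF and 1 in HFDC against HFCC. That threshold also took in Scap 1433520_at, higher in HF against ND and lower in all coffee against HF (limma adjusted p 0.061 and 0.079). Leaving out each array gave 4 to 5 in HF against ND, 0 to 2 in HFCC, HFGC and all coffee against HF, 0 to 3 in HFDC against ND, 0 to 4 in HFDC against HFCC, and 7 to 14 sterol genes in HF against ND. Over all probe sets, the calls without HF replicate 2 fell from 4635 to 1507 in HF against ND and from 1227 to 3 in HFDC against HF. Not every lost call came with such a fall. Stard4 1429240_at was not called in HFGC against ND without HF replicate 1 (limma adjusted p 0.0526). In that fit 456 of all probe sets were called in HFGC against ND, against 435 with all arrays. Of 1980 single values under the other settings, 1929 kept their side of the threshold, 34 lost a call and 17 gained one, and no called value changed sign. Replicate numbers did not pair the arrays (correlations of −0.28 to 0.22), and with the replicate number as a block the counts were 5 in HF against ND, 2 in HFCC against HF and 1 in HFDC against ND, against 2 without the block. The Stard4 calls in HFCC and HFGC against HF lay near the threshold (adjusted p 0.0335 to 0.0398), and the cause of each change was not tested.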
